A study of Mus musculus with 4 samples.

Results

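The piRNA pathway genes described here are 9 mouse genes of germ-cell transposon control, Piwil2, Mov10l1, Ddx4, Tdrd1, Tdrd12, Stk31, Asz1, Mael and Tex19.1. They were chosen by symbol, and all 9 were found among the 43496 Ensembl genes of the deposited table. Their RNA was measured by RNA-seq in E14 cells, a line of mouse embryonic stem cells kept in serum with LIF on gelatin, with the strain given as 12910la. The MERVL shRNA group, with the genotype label MERVL knocked down, carried an shRNA in the pSuper puro plasmid against MERVL (also written MuERVL), an endogenous retrovirus of the 2-cell embryo. The random shRNA group, with the genotype label wild type, is titled as a random knockdown. Per the labels' protocols, cells of both groups received 1000 ng of plasmid, then puromycin at 1 µg/ml from 24 h after transfection for 4 days. Each group had 2 libraries, and nothing in the labels says that these were separate cultures, so p-values measure the spread between these libraries, which may be technical.

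PIWI proteins bind piRNAs, small RNAs of the germ line that guide the cleavage of transposon transcripts and the methylation of transposon DNA in fetal male germ cells. Most of the machinery sits in germ granules next to mitochondria, where Tudor-domain proteins hold PIWI proteins by their methylated arginines. In somatic cells many of these genes are silent and carry DNA methylation on CpG-rich promoters, and some are transcribed in embryonic stem cells. Bulk RNA cannot tell fewer cells that transcribe a gene from less RNA per cell.

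The libraries held 16067854 and 14570056 estimated counts with MERVL shRNA, against 15496921 and 11628887 with random shRNA. RNA of the target, summed over 2277 MERVL copies, was 1163 CPM in replicate 1 and 573.8 CPM in replicate 2 of MERVL shRNA, against 4662 CPM and 1434 CPM in replicates 1 and 2 of random shRNA. CPM are TMM-scaled counts relative to library size. The random shRNA libraries stood further apart (Pearson r 0.972 across features on log2(CPM + 1)) than the MERVL shRNA libraries (r 0.995). Markers of pluripotency were present in every library, with all 10 genes of that list above the filter on low counts. Their sum was 7871 and 8479 CPM with MERVL shRNA, against 6999 and 6791 CPM with random shRNA. All 10 had a positive log2 fold change (median 0.22). Both MERVL shRNA values lay above both random shRNA values in 8 of them (22.2% of all features). Of 12 germ cell markers, 4 averaged under 1 CPM, among them the oocyte factors Nobox and Figla, while Uchl1 and Kit averaged 120.8 and 101.0 CPM. Of the 8 tested, 5 had a negative and 3 a positive log2 fold change. Both MERVL shRNA values lay under both random shRNA values in 2 (24.0% of all features) and above them in 1 (22.2%). The list, mostly Uchl1 and Kit, summed to 253.6 and 267.7 CPM with MERVL shRNA and 334.1 and 285.2 CPM with random shRNA. Of 10 feeder and fibroblast markers, Col3a1, Postn, Lum and Dcn were at 0 counts in each library, and the list, mostly Fn1, summed to 660.6 and 658.0 CPM with MERVL shRNA and 717.0 and 702.8 CPM with random shRNA. Thy1 was at 8.67 and 6.88 CPM with MERVL shRNA, against 23.1 and 28.8 CPM with random shRNA (edgeR adjusted p = 0.211). Of the 4 tested genes of that list, Thy1, Col1a1 and Vim had both MERVL shRNA values under both random shRNA values, against 24.0% of all features. Their log2 fold changes were -1.73, -1.14 and -0.40, and the median over the 4 was -0.77. Of these 4, edgeR called 0 (2 lower at an unadjusted p under 0.05, against 8.92% of all features), limma-voom 0 and DESeq2 1, lower (1.01% of features). The 10 primitive endoderm markers summed to 156.4 and 145.6 CPM with MERVL shRNA, against 140.9 and 146.8 CPM with random shRNA. All markers of the 2-cell-like state, 16 of 17 listed genes being in the table, had both MERVL shRNA values under both random shRNA values, against 24.0% of all features. Their sum was 436.9 and 249.5 CPM with MERVL shRNA, against 2080 and 571.7 CPM in random shRNA replicates 1 and 2. The part of these marker differences in the results below was not tested.

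The promoters of the genes were read first, because the E-box bound by MGA and MAX and the site of E2F6 belong to a Polycomb complex known to hold germline genes silent in embryonic stem cells. RefSeq windows of GRCm38.p6, from 250 bases before to 50 bases after the start site, were found for 8 genes. Tdrd1 had 3 windows and Stk31 and Tdrd12 had 2 each, of which the window nearest to the GENCODE start was used. The RefSeq and GENCODE starts lay 165 bases apart in Ddx4, 85 in Mov10l1 and at most 3 in the other 6 genes, so distances hold for the RefSeq start. The hexamer CACGTG, which reads the same on both strands, occurred in 5 of the 8 windows (Mov10l1, Ddx4, Tdrd1, Stk31 and Mael) and in 7.15% of all 32851 windows of this length. The hexamer TCCCGC, searched on both strands as TCCCGC and GCGGGA, occurred in 3 of the 8 (Ddx4, Mael and Tex19.1) and in 20.0% of all windows. These motifs do not overlap each other in the windows shown. CpG dinucleotides numbered between 9 in Tdrd12 and 38 in Ddx4, with a median of 20 over the 8 genes and 7 over all windows. Both hexamers contain a CpG, and the shares over all windows were not matched for CpG count. A match is a description of letters and not evidence of binding. The 4 windows below hold the E-box nearest to the start (Tdrd1), both hexamers (Ddx4 and Mael) or TCCCGC alone (Tex19.1), with every match in capitals. They lie at chr19:56825959-56826258 on the plus strand, chr13:112652261-112652560 on the minus strand, chr1:166238695-166238994 on the minus strand and chr11:121145893-121146192 on the plus strand.
Tdrd1: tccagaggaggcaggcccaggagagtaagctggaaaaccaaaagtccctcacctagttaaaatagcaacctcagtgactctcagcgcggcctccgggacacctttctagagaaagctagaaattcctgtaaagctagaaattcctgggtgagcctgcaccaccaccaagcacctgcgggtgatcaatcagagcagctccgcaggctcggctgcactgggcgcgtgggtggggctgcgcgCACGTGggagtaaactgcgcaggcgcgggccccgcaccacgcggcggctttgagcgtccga
Ddx4: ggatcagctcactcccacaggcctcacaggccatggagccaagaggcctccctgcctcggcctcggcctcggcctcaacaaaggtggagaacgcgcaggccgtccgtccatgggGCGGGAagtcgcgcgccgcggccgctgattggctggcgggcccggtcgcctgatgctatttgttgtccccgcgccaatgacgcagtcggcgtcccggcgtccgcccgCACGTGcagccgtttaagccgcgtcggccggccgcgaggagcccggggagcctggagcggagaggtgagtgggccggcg
Mael: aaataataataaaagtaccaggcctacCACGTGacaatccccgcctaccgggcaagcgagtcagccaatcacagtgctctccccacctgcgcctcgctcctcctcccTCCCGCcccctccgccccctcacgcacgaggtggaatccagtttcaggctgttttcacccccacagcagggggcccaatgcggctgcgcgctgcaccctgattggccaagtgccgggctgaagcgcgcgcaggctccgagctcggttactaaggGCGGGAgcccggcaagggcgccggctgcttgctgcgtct
Tex19.1: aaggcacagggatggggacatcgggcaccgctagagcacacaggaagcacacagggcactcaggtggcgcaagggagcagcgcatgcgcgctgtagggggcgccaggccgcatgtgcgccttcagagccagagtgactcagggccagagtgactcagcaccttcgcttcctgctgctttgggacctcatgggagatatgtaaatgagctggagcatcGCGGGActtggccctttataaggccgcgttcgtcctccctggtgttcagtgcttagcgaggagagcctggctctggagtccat
Counted from the start site, CACGTG began 11 bases before it in Tdrd1, 29 in Ddx4, 120 in Stk31, 223 in Mael and 246 in Mov10l1. TCCCGC began 33 bases before the start in Tex19.1, 136 in Ddx4 and 143 in Mael, and Mael held a further match from base 12 after the start.

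**Figure D1:**
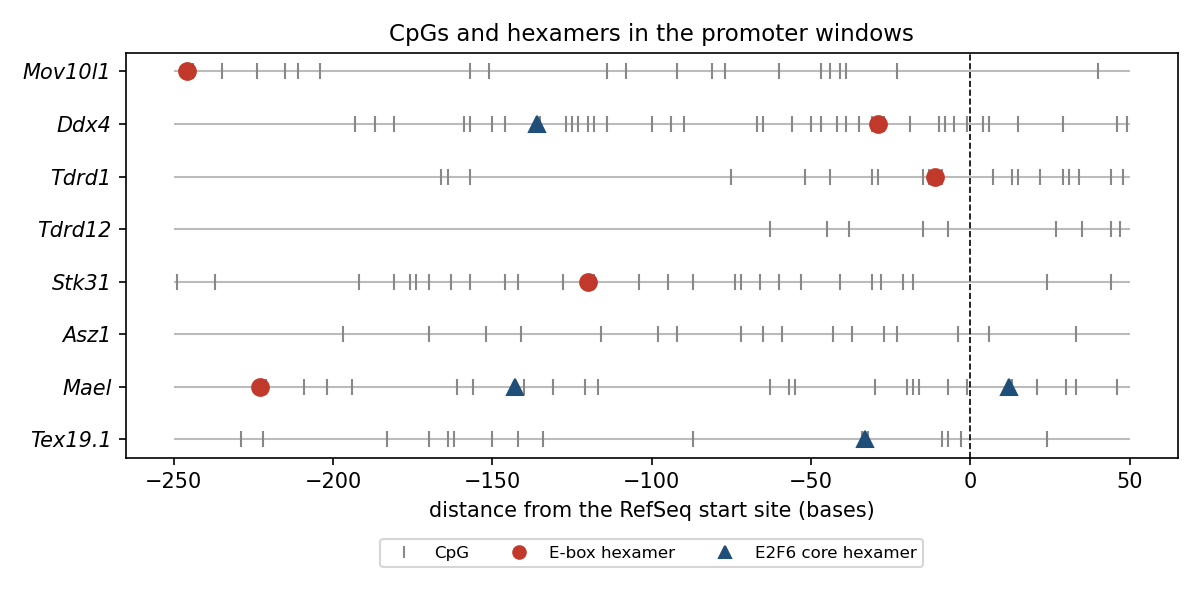
CpG dinucleotides (ticks), the E-box hexamer (circles) and the E2F6 core hexamer (triangles) against distance in bases from the RefSeq start site, for the 8 genes with a window. Measured from the RefSeq start of the window used, the E-box is within 30 bases in Tdrd1 and Ddx4 and more than 100 bases before it in Stk31, Mael and Mov10l1.

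Levels of the 9 genes spanned a wide range. Tex19.1 was the most abundant by CPM per kb of exon, at 31.2 and 35.2 with MERVL shRNA and 101.6 and 30.1 with random shRNA. Mael followed with a mean over the 4 libraries of 10.7 CPM per kb, then Ddx4 with 8.02, Mov10l1 with 4.92, Stk31 with 4.88, Piwil2 with 2.77, Tdrd12 with 1.17, Asz1 with 0.516 and Tdrd1 with 0.260. In this order the ranges over libraries did not overlap between Tex19.1 and Mael, or between Ddx4 and Mov10l1. The other neighbours overlapped, although the upper gene of the pair was the higher in each of the 4 libraries except for Mov10l1 and Stk31, where it was so in 2. Asz1 and Tdrd1 rested on few reads, between 10 and 38 counts in a library. The 10 counts that each of them had in MERVL shRNA replicate 2 carry an exact Poisson interval of 4.80 to 18.4, which covers counting error only.

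All 9 genes passed the filter on low counts, and all 9 had a negative log2 fold change of MERVL shRNA over random shRNA, a sign shared by 51.4% of the 16353 features tested. None passed the edgeR quasi-likelihood test after Benjamini-Hochberg adjustment over those features, where 0% of features were called lower and 0.00612% higher. At an unadjusted p under 0.05 there were 5 of 9 lower and 0 higher, against 8.92% of all features lower and 4.69% higher. In 8 of 9 both MERVL shRNA libraries lay below both random shRNA libraries, which held for 24.0% of all features. The opposite order held for none of the 9 and 22.2% of features. Features, here and in the other shares, include copies of the target MERVL, 618 of those tested in edgeR. Of the 15735 genes tested, 999 were lower and 766 higher at an unadjusted edgeR p under 0.05. Among these genes 3425 had both MERVL shRNA libraries below both random shRNA libraries, and 3625 had the opposite order. The median log2 fold change of the 9 genes was -0.99, and that of all features -0.01. The middle value was that of Tex19.1, whose groups overlapped, and its neighbours in order were -1.04 (Asz1) and -0.64 (Stk31). DESeq2 called 1 of the 9, Piwil2, lower (adjusted p = 0.0428), with 1.01% of features called lower, and limma-voom called 0. With no filter on low counts edgeR called 3, Piwil2, Tdrd12 and Tex19.1, with 3.76% of features called lower. For Tex19.1 the log2 fold change was then -0.97 with an SE of 0.18, against -0.99 with an SE of 0.50 under the filter.

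**Figure D2:**
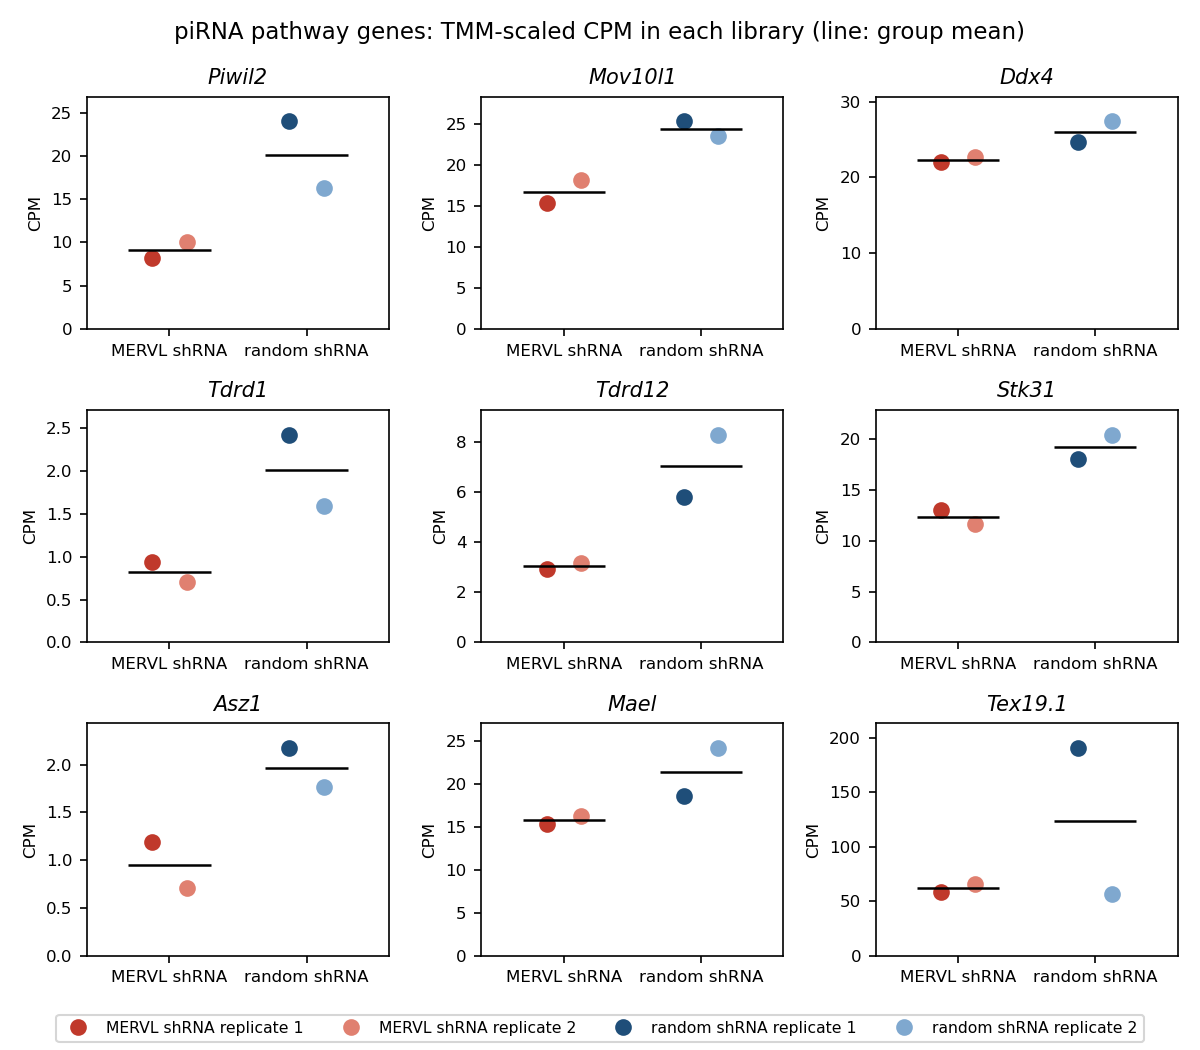
TMM-scaled CPM of the 9 genes in each library, 1 panel per gene with its own axis from 0; points are libraries and lines are group means (n = 2 each). Both MERVL shRNA points lie under both random shRNA points in every panel but Tex19.1, where random shRNA replicate 1 is at 190.2 CPM and replicate 2 at 56.4 CPM.

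The PIWI protein and the RNA helicases were considered first. Piwil2, the PIWI protein also called MILI that loads piRNAs and cleaves their precursors, had 8.20 and 10.1 CPM with MERVL shRNA, against 24.0 and 16.3 CPM with random shRNA. The groups did not overlap, and the random shRNA libraries differed from each other 1.47-fold. Its log2 fold change was -1.15 ± 0.25 (SE; edgeR adjusted p = 0.329), the smallest unadjusted p of the 9 genes (0.00337). Mov10l1, the helicase that feeds piRNA precursors into processing, had 15.3 and 18.2 CPM with MERVL shRNA and 25.3 and 23.6 CPM with random shRNA. These groups were also separate, with a log2 fold change of -0.55 ± 0.17 (edgeR adjusted p = 0.329). Ddx4, the helicase known as mouse vasa homolog, had 22.0 and 22.7 CPM with MERVL shRNA, against 24.7 and 27.4 CPM with random shRNA. It showed the smallest difference of the 9, -0.22 ± 0.16 on the log2 scale (edgeR adjusted p = 0.607), although its groups did not overlap, and it stood at -0.29 and -0.13 without random shRNA replicate 1 and replicate 2.

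Among the Tudor-domain scaffolds, Tdrd1, which binds PIWI proteins in the granules, had 0.943 and 0.709 CPM with MERVL shRNA and 2.42 and 1.59 CPM with random shRNA. It had the most negative log2 fold change of the 9, -1.28, with an SE of 0.46 on 10 to 38 counts (edgeR adjusted p = 0.338). Tdrd12, needed in mouse testis for secondary piRNAs, had 2.95 and 3.19 CPM with MERVL shRNA, against 5.81 and 8.30 CPM with random shRNA. Its MERVL shRNA libraries were close together and well under the random shRNA libraries, with a log2 fold change of -1.19 ± 0.32 (edgeR adjusted p = 0.329). Stk31, a Tudor protein with a kinase-like domain, had 13.0 and 11.6 CPM with MERVL shRNA and 18.1 and 20.4 CPM with random shRNA. Its groups were separate as well, at -0.64 ± 0.18 (edgeR adjusted p = 0.329). Between the random shRNA libraries, Tdrd1 was higher in replicate 1 and both Tdrd12 and Stk31 were higher in replicate 2.

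Asz1 is an ankyrin-repeat protein of the mitochondrial surface needed for granule assembly. It had 1.19 and 0.709 CPM with MERVL shRNA, against 2.17 and 1.76 CPM with random shRNA. The groups did not overlap, but the MERVL shRNA libraries differed 1.68-fold from each other on 19 and 10 counts, and the log2 fold change was -1.04 ± 0.45 (edgeR adjusted p = 0.385). Mael, the mouse maelstrom homolog of the granules, had 15.3 and 16.3 CPM with MERVL shRNA and 18.6 and 24.2 CPM with random shRNA. Its log2 fold change was -0.43 ± 0.19 (edgeR adjusted p = 0.395), and -0.61 and -0.22 without random shRNA replicate 1 and replicate 2.

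Tex19.1, a mammalian germline protein known for restraining retrotransposons in germ cells and placenta, was the gene of the 9 whose groups overlapped. It had 58.3 and 66.0 CPM with MERVL shRNA, against 190.2 and 56.4 CPM in random shRNA replicates 1 and 2. Random shRNA replicate 1 stood alone, 3.38-fold above replicate 2, which lay under both MERVL shRNA libraries. The log2 fold change was -0.99 ± 0.50 (edgeR adjusted p = 0.447), and without random shRNA replicate 1 it was 0.15 ± 0.12 (edgeR adjusted p = 0.494). Random shRNA replicate 1 was likewise the highest library for the summed MERVL copies and 2-cell-like markers, although for these replicate 2 stayed above both MERVL shRNA libraries. The Tex19.1 transcript shares a stretch of 140 bp at 94.3% identity with its neighbour paralog Tex19.2, so reads from that stretch may not be assigned for certain, though all 4 estimated counts of Tex19.1 were whole numbers. Tex19.2 had 1.01 and 1.49 CPM with MERVL shRNA and 3.64 and 1.93 CPM with random shRNA. No other transcript of 90% identity over at least 100 bp was found for any of the 9 genes, and none had exonic overlap with another gene.

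**Figure D3:**
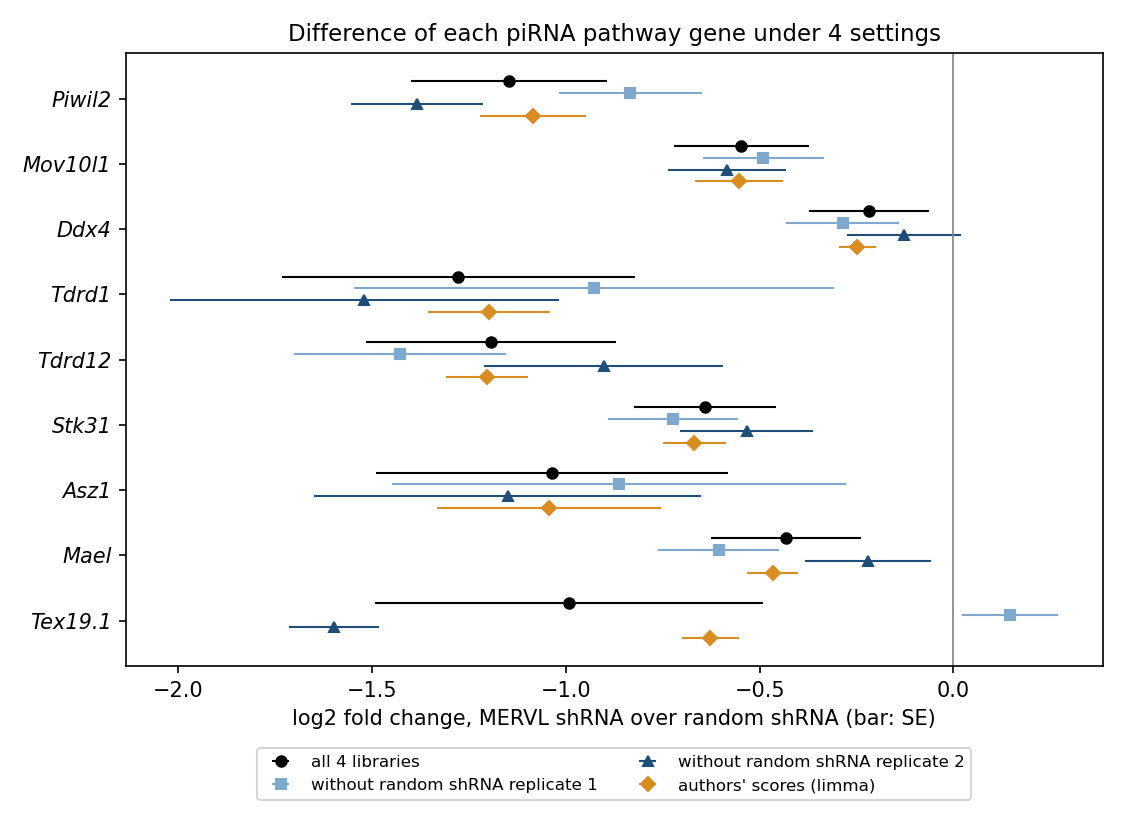
Log2 fold change of MERVL shRNA over random shRNA with its SE for each gene, fitted on all 4 libraries, with random shRNA replicate 1 or 2 left out, and on the authors' scores. Tex19.1 is the gene whose point estimate crosses 0, from -1.60 without replicate 2 to 0.15 without replicate 1. The SE bar of Ddx4 also reaches past 0 without replicate 2 (-0.13 ± 0.15).

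Because the random shRNA libraries stood apart, each comparison was repeated on 3 libraries, with the spread of the larger group standing in for that of the remaining single library. Without random shRNA replicate 1, Piwil2, Mael, Tdrd12, Mov10l1 and Stk31 passed, all 5 lower with MERVL shRNA, and 7.28% of features were called lower. Piwil2 was then at -0.83 ± 0.18 (edgeR adjusted p = 0.000203) and Tdrd12 at -1.43 ± 0.27 (edgeR adjusted p = 9.52e-06). Without random shRNA replicate 2, Piwil2, Tdrd1, Tdrd12, Mov10l1, Stk31 and Tex19.1 passed, 6 in all, with 17.4% of features called lower. Both of these fits took their spread from the same MERVL shRNA libraries, so passing in both is not separate support for a gene. Asz1 and Ddx4 passed in neither. Without either MERVL shRNA library, 0 of the 9 passed and 0% of features were called lower.

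In the authors' normalized scores the random shRNA libraries lay closer together than in CPM (Pearson r 0.999 on log2(score + 1)). For the MERVL shRNA libraries r was 0.987 in the scores and 0.995 in CPM. For both groups the r values cover 17823 features in the scores but 16353 in CPM. They therefore cannot tell whether the MERVL shRNA libraries lay further apart in the scores over all features. For the 9 genes the log2 gaps between the MERVL shRNA libraries were of like size in both. In CPM and scores they were 0.75 and 0.77 for Asz1, -0.30 and -0.28 for Piwil2, and -0.11 and -0.17 for Tdrd12. Between the random shRNA libraries the median absolute gap over features was 0.03 in the scores and 0.29 in CPM, both on the log2(value + 1) scale. For Tex19.1 the scores were 890 and 971 with MERVL shRNA, against 1390 and 1484 with random shRNA, so that the gap between its random shRNA libraries was -0.09 on the log2 scale, where it was 1.75 in CPM. Piwil2 scored 120 and 146 with MERVL shRNA and 266 and 299 with random shRNA. In the scores the groups were separate for all 9 genes with MERVL shRNA below, which held for 40.1% of features. With limma on log2(score + 1), Piwil2, Mael, Tdrd1, Tdrd12, Stk31 and Tex19.1 were called lower, 6 of 9, with 10.3% of features called lower. The median log2 fold change on that scale was -0.67 for the 9 genes and -0.02 for all features. The limma p-values do not hold the gap between the random shRNA libraries that the estimated counts show.

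**Figure D4:**
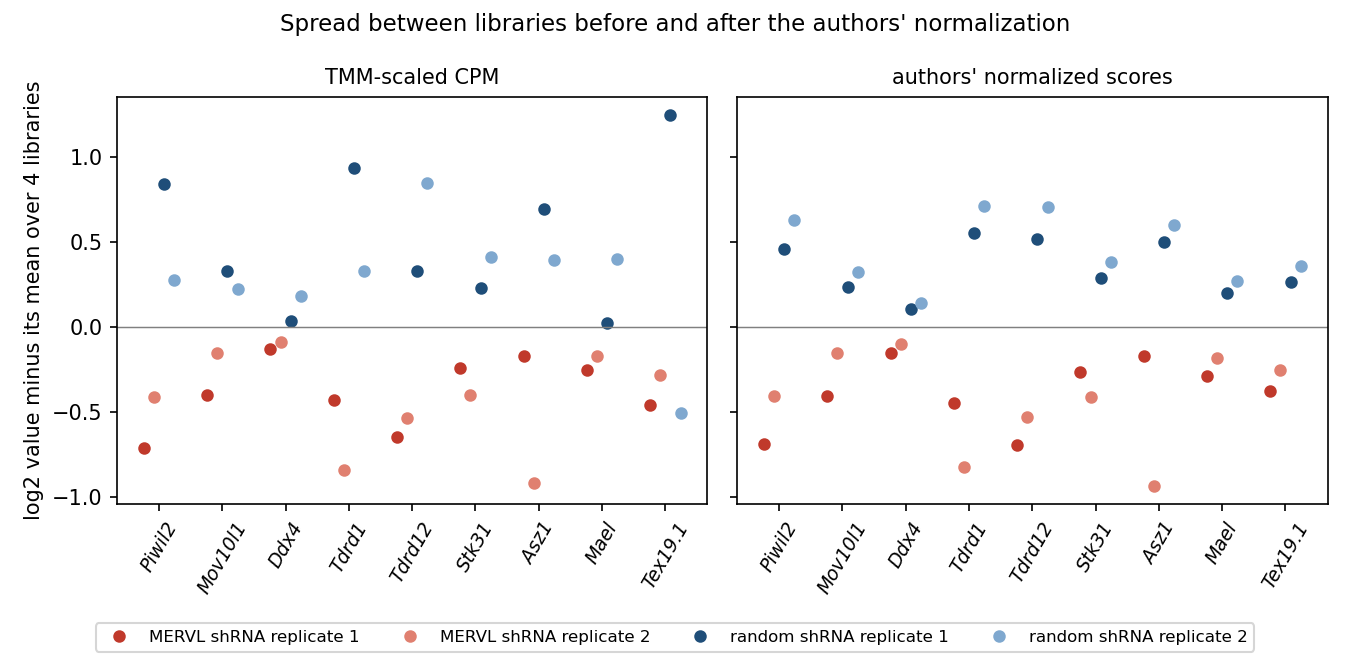
Log2 value of each gene in each library minus its mean over the 4 libraries, in TMM-scaled CPM (left) and in the authors' scores (right). The random shRNA points of a gene lie close together in the scores, with gaps no wider than 0.19, while in CPM those of Tex19.1 are 1.75 apart.

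Of 32 other genes of the pathway, all in the table, 26 passed the filter on low counts. None passed edgeR, and the median log2 fold change was -0.34. At an unadjusted p under 0.05 there were 7 lower (8.92% of all features) and 1 higher (4.69% of features). DESeq2 called 2 of them lower, with 1.01% of features called lower, and limma-voom 0. In 14 of the 26 both MERVL shRNA libraries lay below both random shRNA libraries (24.0% of features), and in 3 above them (22.2% of features). Tdrkh, the mitochondrial Tudor protein that recruits the piRNA-trimming nuclease Pnldc1, had 5.41 and 4.72 CPM with MERVL shRNA, against 17.6 and 13.9 CPM with random shRNA. Its log2 fold change was -1.64 ± 0.24 (edgeR adjusted p = 0.250), the smallest p of this list. Dnmt3l, the cofactor of de novo DNA methylation, had 127.9 and 137.4 CPM with MERVL shRNA and 214.1 and 231.3 CPM with random shRNA, at -0.75 ± 0.14 (edgeR adjusted p = 0.288). Both passed without random shRNA replicate 1, where 4 of the 26 and 7.28% of all features were called lower. The chaperone-like Fkbp6 stood at -0.85 ± 0.30 (edgeR adjusted p = 0.338). Morc1, an ATPase that represses transposons in male germ cells, lay on the other side, with 127.1 and 127.8 CPM with MERVL shRNA, against 85.9 and 104.7 CPM with random shRNA (log2 fold change 0.42 ± 0.15, edgeR adjusted p = 0.338). Of the other PIWI genes, Piwil1 averaged 0.555 CPM with MERVL shRNA and 1.52 CPM with random shRNA, and Piwil4 averaged 2.59 and 3.75 CPM. Pnldc1 and Pld6, the trimming and cleaving nucleases of piRNA ends, had log2 fold changes of 0.18 ± 0.19 and 0.08 ± 0.29.

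The 9 genes were set beside germline genes known for methylated promoters in somatic cells, since several of the 9 are counted among those; methylation was not measured here. Of 24 such genes, 22 were tested and Tdrkh belonged to both this list and the pathway list. The median log2 fold change was -0.67, with 14 of 22 lower in both MERVL shRNA libraries (24.0% of all features) and 1 higher in both (22.2% of features). None passed edgeR with all 4 libraries, while 11 had an unadjusted p under 0.05, all lower, as had 8.92% of features. DESeq2 called 4 lower (1.01% of features) and limma-voom 0, and edgeR called 14 lower without random shRNA replicate 1 (7.28% of features). Dazl, the germ-cell RNA-binding protein, had 89.1 and 65.3 CPM with MERVL shRNA, against 216.4 and 157.1 CPM with random shRNA. Syce1 of the synaptonemal complex had a log2 fold change of -0.91 ± 0.18 and the X-linked homeobox gene Rhox13 one of -1.39 ± 0.29 (edgeR adjusted p of 0.294 and 0.317). Dazl, Syce1 and Rhox13 had separate groups, as had 8 of the 9 piRNA pathway genes.

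A list of known repressors of germline genes and related factors, among them the DNA demethylases Tet1 and Tet2, held genes of both signs. All 26 were tested, with a median log2 fold change of 0.03, 11 negative and 15 positive. Both MERVL shRNA libraries lay above both random shRNA libraries in 10 (22.2% of all features) and below them in 5 (24.0% of features). Without random shRNA replicate 1 the median was 0.18. In edgeR 0 passed, with 1 lower and 2 higher at an unadjusted p under 0.05 (8.92% of all features lower and 4.69% higher). DESeq2 called 1 higher, Tet2, where 68 of 15090 features were called higher, and limma-voom called 0. Tet2, a DNA demethylase, had the smallest p of this list at 0.77 ± 0.20, the Polycomb partner Yaf2 had -0.54 ± 0.18, and the deacetylase Hdac2 had 0.44 ± 0.15 (edgeR adjusted p = 0.329 for each). Pcgf6, the subunit that defines the Polycomb complex of germline genes, had 73.1 and 71.2 CPM with MERVL shRNA, against 77.4 and 78.0 CPM with random shRNA. The histone methyltransferase Ehmt2 stood at 0.31 ± 0.13. Dnmt3b, a de novo DNA methyltransferase, had 54.5 and 56.0 CPM with MERVL shRNA and 69.6 and 57.7 CPM with random shRNA, at -0.21 ± 0.15 (edgeR adjusted p = 0.613). Random shRNA replicate 1 was the higher of its pair in Dnmt3b by more than the gap between replicate 2 and the MERVL shRNA libraries.

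**Figure D5:**
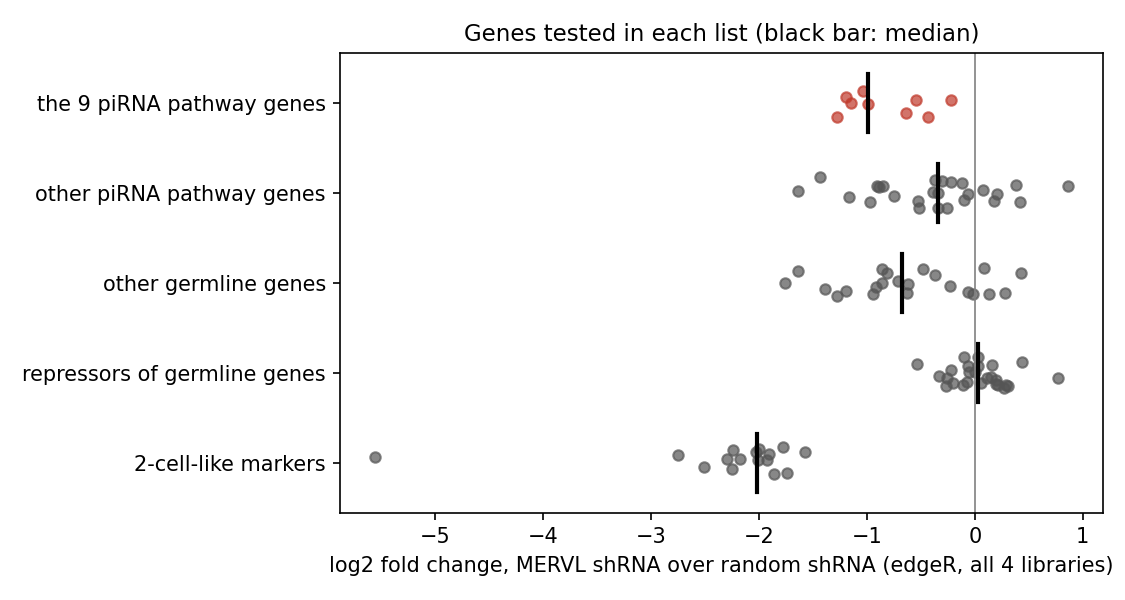
Log2 fold change of MERVL shRNA over random shRNA from edgeR on all 4 libraries for each tested gene of 5 lists; points are genes and black bars are list medians. The 9 piRNA pathway genes (median -0.99) lie left of 0, and the 2-cell-like markers lie furthest left (median -2.02). The list of repressors of germline genes and related factors lies around 0 (median 0.03).

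The genes with the most similar profiles over the 4 libraries were found by the root mean square difference of centred log2(CPM + 1) values, among genes with a mean of at least 5 CPM. For Piwil2 these were Uba1y (0.07), Sord (0.09) and Zfp568 (0.11). Sord, for instance, had 24.1 and 26.0 CPM with MERVL shRNA, against 56.1 and 42.0 CPM with random shRNA, the same order of libraries as Piwil2 at a higher level. For Tex19.1 they were Nefh (0.09), Calcoco2 (0.12) and Mreg (0.12). Nefh had 24.1 and 26.0 CPM with MERVL shRNA and 85.7 and 25.9 CPM with random shRNA, so random shRNA replicate 1 stood alone there as well. With 4 libraries many genes can share such a profile, and the likeness is a description.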

How the data were processed

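The submitters' processing notes name Trim Galore, HISAT2 and build mm10, while no version, counting program or strand setting is given in the sources used here. In the table of estimated counts that the authors deposited, 6 of the 36 values of the 9 genes were not whole. A further table that the authors deposited holds normalized scores for 17823 features, made by a step not given in the sources used here. Symbols came from GENCODE for 42329 identifiers, exon lengths and overlaps from GENCODE M21 (GRCm38, also called mm10), and promoters from RefSeq.

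Estimated counts were rounded, filtered with filterByExpr, TMM-scaled and tested in edgeR 4.0.16 (R 4.3.3) by its quasi-likelihood method, 2-sided, without a replicate term. Benjamini-Hochberg adjustment was over 16353 features, 15735 genes and 618 MERVL copies, with a threshold of 0.05. SEs were derived from the F statistic. Alternatives were other scalings and filters, DESeq2 1.42.0, limma 3.58.1 (voom, or log2(score + pseudocount) for a mean score of at least 1), a block for replicate number, and fits with 1 library left out. The code was tested on simulated counts. Gene lists are described by counts and medians with no set test.

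The 9 genes, the lists and the rules were chosen with earlier results of these data known. Named genes were the 9 genes, up to 4 genes with the smallest p in each list described, Dazl, Dnmt3b, Dnmt3l, Pcgf6, and the 3 genes of nearest profile to the gene with the smallest p and the gene with the highest CPM. Tex19.2, Piwil1, Piwil4, Pnldc1 and Pld6 were named after their values were seen, as paralogs or for their role. The marker genes were named to show levels at or near 0, the largest parts of a sum or differences between the groups.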

Additional observations from a re-analysis of the deposited data

How the results depend on the processing

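The count of the 9 genes called lower was 0 in the edgeR test and also 0 with RLE or upper-quartile scaling, a CPM filter and limma-voom. It was 3 with no filter (Piwil2, Tdrd12 and Tex19.1), 1 with DESeq2 and 6 with the scores, whether with a pseudocount of 1 or 0.5 or without a filter, and between 0 and 6 with a library left out. None of the 9 was called higher in any of the 14 alternatives. Other pathway genes called lower numbered 3 with no filter, 2 with DESeq2, 7, 6 and 7 with the scores at a pseudocount of 1, of 0.5 and without a filter, and 0 to 8 with a library left out. Those called higher numbered 2 in each fit of the scores and 0 to 4 with a library left out. Over all features, 1023 were called lower and 270 higher with no filter, 152 and 68 with DESeq2, 0 and 0 with limma-voom, and 1838 and 1662 with the scores (1794 and 1632 with a pseudocount of 0.5). With a library left out these counts were 0 to 2985 lower and 2 to 2557 higher.

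The median log2 fold change of the 9 genes was -0.99, and was -0.75 with limma-voom, -0.67 in each fit of the scores and -0.90 to -0.70 with a library left out. The medians in edgeR on all 4 libraries, with limma-voom and with the replicate block below were each the value of Tex19.1. Of the 9, only Tex19.1 changed sign, with values from -1.60 to 0.15 with a library left out (0.15 without random shRNA replicate 1). Same-numbered libraries share only a number in the labels; their deviations from the group means had a correlation of 0.22 over 16353 features. With the replicate number as a block, 1 of the 9 was called lower (Piwil2, adjusted p = 0.0283 in edgeR), 2 other pathway genes were lower, 628 features were lower and 110 higher, and the median of the 9 was -0.75. The cause of these differences was not tested. Depth limits Asz1 and Tdrd1 most, with 10 to 38 counts in a library.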
